A study of Saccharomyces cerevisiae with 11 samples.

Results

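The genes described here encode proteins of the mitochondrial ribosome of budding yeast. They were taken by symbol (MRPL, MRPS, MRP or RSM followed by a number) from 2 tables of array values, with the spots of a gene averaged. The rule found 67 genes among the 5598 genes of the low phosphate table and the 5636 genes of the high phosphate table. Of these, 38 belong to the large subunit and 28 to the small subunit. The remaining gene, MRP8, carries such a symbol, but its protein is placed in neither subunit, so counts by subunit leave it out. Subunit and protein class were assigned from general knowledge of the yeast mitoribosome, not from the files.

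The mitochondrial ribosome translates the few messages encoded by mitochondrial DNA, which are mostly core subunits of the respiratory chain and ATP synthase. Its RNAs come from mitochondrial DNA, but nearly all of its proteins are nuclear-encoded, made in the cytosol and imported. Some of these proteins descend from bacterial ribosomal proteins and others are specific to mitochondria. Among the genes measured, 24 of the large and 17 of the small subunit were classed as relatives of bacterial proteins, and 14 and 10 as specific to mitochondria. RSM22, a methyltransferase-like protein of the small subunit, was put in neither class.

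The study compared cultures of Saccharomyces cerevisiae strain S288C, a laboratory reference strain, that received arsenate with control cultures that received sodium chloride in its place. Arsenate is a toxic analogue of phosphate. Arsenate was given at a final 2 μM. The medium contained either 100 μM phosphate, called low below, or 1 mM phosphate, called high below and normal in some of the labels. Of the 11 arrays, 6 covered low phosphate, a pair for each of the times 4, 8 and 10 h, and 5 covered high phosphate, with pairs for 4 and 8 h but a single array for 10 h. Arsenate RNA was always labelled with Cy5 and control RNA with Cy3, so each ratio includes any dye preference of the gene. Nothing in the labels shows that paired arrays came from different cultures or used different control RNA. The p-values therefore measure only the spread between these arrays, which may be technical. All low phosphate arrays were of 1 design and all high phosphate arrays of another, so the effects of phosphate and of array design cannot be told apart, and no test was run between them.

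Values below are taken as log2 ratios of arsenate over control, so positive values mean more RNA in the arsenate culture. ARR2, which encodes arsenate reductase, was measured at 5.23 to 8.00 on the 6 low phosphate arrays and at 3.34 to 3.59 on the 4 high phosphate arrays that had a value for it. All 67 genes had a value on all 6 low phosphate arrays. On high phosphate arrays 55 genes had a value on all 5, and 64 could be tested. MRP35, MRPS8 and RSM25 could not, because a time lacked a value or none was repeated. The 46 genes with 2 spots gave spot pairs that differed by a median of 0.19 at low and 0.25 at high phosphate.

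The arrays differed in how well replicates matched, which bears on every result. Across the 67 genes the paired low phosphate arrays correlated at 0.70 for 4 h, 0.82 for 8 h and 0.69 for 10 h. Between low phosphate arrays of different times the correlations ran from -0.05 to 0.32. At high phosphate the replicates correlated at 0.23 for 4 h (62 genes) and at -0.22 for 8 h (57 genes). The 57 include MRPL22, at -5.37 and 0.14. Over all genes the replicates correlated at 0.55 for 4 h and 0.20 for 8 h of high phosphate. At low phosphate they did so at 0.77, 0.94 and 0.84 for 4 h, 8 h and 10 h. The 8 h arrays at high phosphate thus stood apart from each other. For this reason counts and named genes at high phosphate 8 h and in the mean of the times are also given without each of them, where the fit allowed it, by alternatives of which some were chosen after seeing the data. These correlations are across genes, which share arrays and are not independent replicates. The median of all genes also differed between arrays, from -0.18 to 0.18 at low phosphate and from -0.14 to -0.01 at high phosphate. List medians are therefore also given relative to the median of all genes on the same array.

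**Figure D1:**
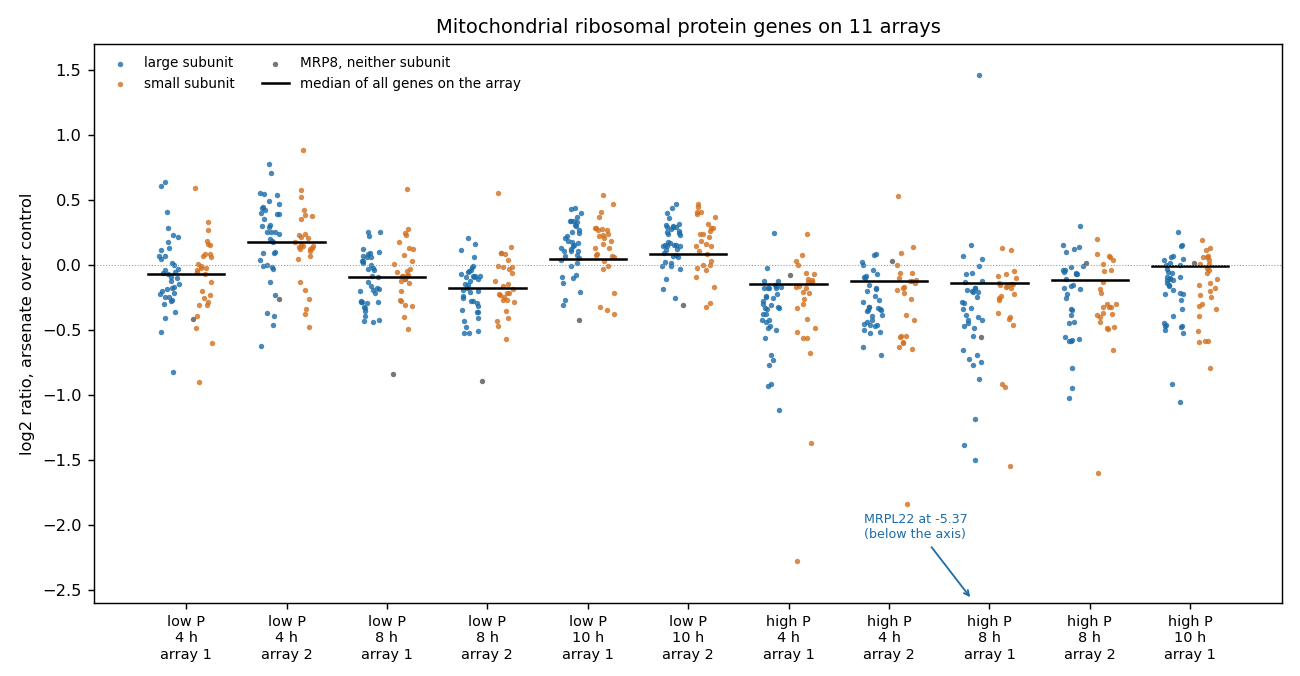
Log2 ratio of arsenate over control (vertical axis) for each mitochondrial ribosomal protein gene on each of the 11 arrays, by subunit, with the median of all genes of the array as a black line. Low phosphate 4 h and 8 h values lie around the line, low phosphate 10 h values lie mostly above it and high phosphate values mostly below it; 1 value, MRPL22 at -5.37, lies below the axis.

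Taken as a group, the mitoribosomal genes stayed close to the middle of the transcriptome at 4 h and 8 h of low phosphate. Their median was 0.0089 and 0.0091 above that of all genes on the 4 h arrays and 0.0022 and 0.007 above it on the 8 h arrays. At 10 h it was 0.11 above on the first array and 0.07 above on the second. On the 5 high phosphate arrays it was 0.10 to 0.15 below that of all genes. The number of genes under the array median was 31 to 33 of 67 on the 4 h and 8 h low phosphate arrays. It was 18 and 21 of 67 on the 10 h arrays. At high phosphate it was 49 of 65 and 44 of 63 at 4 h, 48 of 63 and 37 of 60 at 8 h, and 47 of 67 at 10 h.

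Fitted values of the mitoribosomal genes spanned less than those of all genes. Their interquartile range at low phosphate was 0.25 at 4 h, against 0.41 for all genes. At 8 h it was 0.29 against 0.55, and at 10 h 0.21 against 0.44. Over the 3 times of low phosphate 36 of the 67 genes passed the test at no time, 25 at 1 time, 4 at 2 times and 2 at all 3. The number of times passed was not counted over all genes. At 4 h, 8 h and 10 h 22.4%, 22.4% and 13.4% of the 67 passed, against 26.3%, 48.9% and 33% of all genes. The test was limma's moderated test on the whole table with Benjamini-Hochberg adjustment over 5185 genes, a threshold of 0.05 and both directions. Its standard errors (SE) are mostly a value pooled over all genes.

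At 4 h of low phosphate the genes that passed the test split between higher and lower. Of the 67, 9 rose (13.4%) and 6 fell (8.96%), against 14.7% and 11.6% of all genes. With each array centred on its median the counts were 9 and 9, while those over all genes went from 763 higher and 603 lower to 883 and 922. With array weights 3 of the 67 passed (4.48%) and 6.85% of all genes did. Without the first 4 h array 27 passed (40.3%, 21 of them higher), and 35% of all genes. By subunit, 5 large subunit genes rose and 2 fell, and 4 small subunit genes rose and 3 fell.

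MRPS16, a small subunit protein related to bacterial S16, had the largest rise. Its values were 0.59 and 0.88 at 4 h, then -0.06 and 0.09 at 8 h and -0.22 and -0.17 at 10 h. The 4 h arrays thus lay above the other low phosphate arrays, but the gene was picked for its 4 h rise. Its fitted value at 4 h was 0.74 (SE 0.12, limma adjusted p = 0.000232). On high phosphate arrays MRPS16 was at -0.57 and -0.14 at 4 h, at -0.50 on the 8 h array that had a value and at -0.51 at 10 h, below 0 on all 4.

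MRPL49, the large subunit relative of bacterial L21, was next. It was at 0.60 and 0.78 (4 h), -0.0036 and -0.15 (8 h) and 0.44 and 0.16 (10 h). The 4 h values were above all others, but MRPL49 too was picked for its 4 h rise. The 4 h value was 0.69 (SE 0.12, limma adjusted p = 0.000484). MRPL33, a relative of bacterial L30, was at 0.64 and 0.55 at 4 h (fitted 0.60, limma adjusted p = 0.0019), but not called with array weights (adjusted p = 0.0777). MRPL40, a relative of L24, was at 0.23 and 0.71, so its arrays differed by about as much as its mean. Its fitted 0.47 (limma adjusted p = 0.0151) lost its call without the second 4 h array (0.23, adjusted p = 0.286) and was 0.71 without the first.

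RSM10, the small subunit relative of bacterial S10, fell at 4 h and was below 0 on all 6 low phosphate arrays. The 4 h arrays gave -0.90 and -0.48, the 8 h arrays -0.49 and -0.47, and the 10 h arrays -0.35 and -0.32. The fitted values were -0.69 at 4 h (limma adjusted p = 0.000581), -0.48 at 8 h (0.00418) and -0.34 at 10 h (0.0481), with an SE of 0.13 at each. With the replicate block, which pairs arrays of the same number, the 10 h value lost its call (adjusted p = 0.052). Without either 8 h array the 8 h call was lost (adjusted p = 0.0778 and 0.0704), and the 10 h call was lost without any 1 of the 8 h or 10 h arrays. On high phosphate arrays RSM10 was at -0.11 and -0.06 (4 h), 0.12 and -0.48 (8 h) and 0.06 (10 h), on both sides of 0.

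MRPL28, a large subunit protein specific to mitochondria, was at -0.83 and -0.40 at 4 h but at 0.03 and 0.21 at 8 h and at -0.21 and -0.19 at 10 h. Its 4 h value was -0.61 (SE 0.13, limma adjusted p = 0.00187), and -0.40 without the first 4 h array. MRPL16, related to bacterial L16, was at -0.52 and -0.62 at 4 h and at -0.43 and -0.35 at 8 h, and was called lower at both times (-0.57 and -0.39). At 10 h it was at 0.12 and 0.09. RSM28, specific to mitochondria, was at -0.60 and -0.34 at 4 h (fitted -0.47, limma adjusted p = 0.00882) and lost its call without the first 4 h array (adjusted p = 0.0619). With array weights the 4 h calls of MRPL28, MRPL16, MRPL40 and RSM28 were also lost, at adjusted p = 0.0542, 0.0549, 0.175 and 0.138. The other 4 h calls were the rises of MRP1, MRP2, MRP51, MRPL20 and MRPL44 and the falls of MRPS35 and MRP8, at sizes between 0.34 and 0.45.

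**Figure D2:**
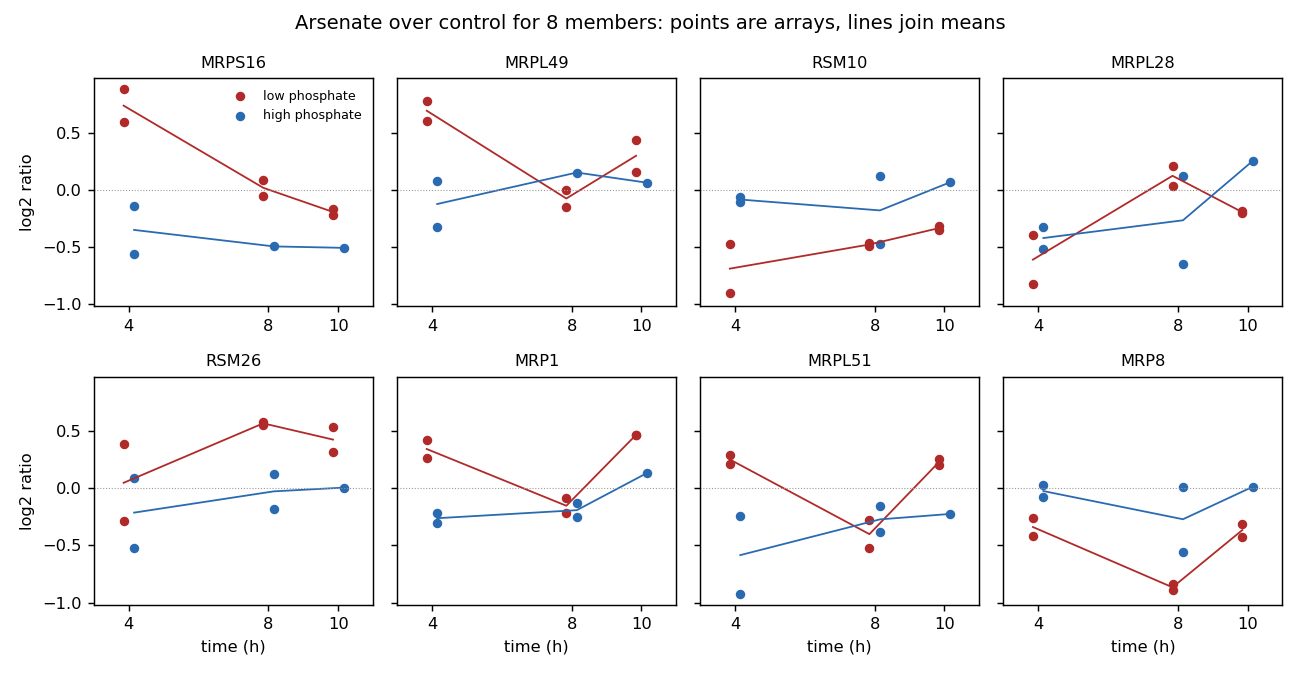
Log2 ratio of arsenate over control (vertical axis) against time in hours for 8 genes, in red for low and blue for high phosphate. Points are arrays and lines join the means of a time; MRPS16 and MRPL49 are high at 4 h of low phosphate, RSM10 and MRP8 are below 0 on all 6 low phosphate arrays, and RSM26 is high at 8 h and 10 h.

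At 8 h of low phosphate most of the calls were falls. Of the 67 genes 1 rose (1.49%) and 14 fell (20.9%), against 18.3% and 30.5% of all genes. The median was -0.15, against -0.13 over all genes. Centring moved the counts to 6 higher and 10 lower, and those over all genes from 951 and 1584 to 1446 and 1181. The share called in either direction was 22.4%, against 48.9% of all genes. Without the first 8 h array 4 genes passed (5.97%, all genes 30%) and without the second 2 (2.99%, all genes 27%). With array weights 23 passed (34.3%, all genes 61.6%), as did 23 without the first 4 h array (all genes 60.5%) and 23 without the second (all genes 59.3%). The large subunit had 9 falls and 0 rises, and the small subunit 4 falls and 1 rise.

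MRP8 had the largest fall at this time. It was at -0.84 and -0.89 at 8 h, against -0.41 and -0.26 at 4 h and -0.42 and -0.31 at 10 h. The 8 h values lay below the others, but the gene was picked for its 8 h fall. Its 8 h value was -0.87 (SE 0.12, limma adjusted p = 7.85e-06), and it was also called at 4 h (-0.34) and 10 h (-0.37). At high phosphate MRP8 was at -0.08 and 0.03 (4 h), -0.56 and 0.02 (8 h) and 0.01 (10 h).

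Among the subunit genes the falls at 8 h were smaller. After RSM10 came MRPL27, a large subunit protein specific to mitochondria, at -0.42 and -0.48 on the 8 h arrays (fitted -0.45, limma adjusted p = 0.0067). MRPS18, related to bacterial S11, was at -0.32 and -0.57 (fitted -0.44, limma adjusted p = 0.00633). Both had 10 h values near or above 0. Without the second 8 h array neither passed (adjusted p = 0.127 and 0.259), nor did MRPL27 without the first (0.0731). The other falls were those of MRP7, MRPL8, MRPL16, MRPL19, MRPL24, MRPL31, MRPL38, MRPL51, MRPS12 and RSM18, from -0.32 to -0.44.

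RSM26 was the rise. It encodes a small subunit protein that resembles superoxide dismutases, as does MRP1. RSM26 was at -0.29 and 0.39 at 4 h, so the 4 h arrays disagreed in sign, at 0.58 and 0.55 at 8 h, and at 0.54 and 0.32 at 10 h. The 8 h value was 0.57 (SE 0.14, limma adjusted p = 0.0029) and the 10 h value 0.43 (0.0276). At high phosphate RSM26 was at -0.52 and 0.09 (4 h), 0.13 and -0.18 (8 h) and 0.0059 (10 h).

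At 10 h of low phosphate the mitoribosomal genes lay above the middle of the transcriptome, with a median of 0.17 against 0.07 over all genes. Above 0 were 55 of the 67, and 3041 of all 5185 genes. Few of the 67 passed the test one by one. Of the 67, 7 rose (10.4%) and 2 fell (2.99%), against 20.2% and 12.8% of all genes. With arrays centred the counts were 8 and 5, and those over all genes went from 1047 and 662 to 1041 and 1061. In either direction 13.4% of the 67 and 33% of all genes were called. None of the 67 passed without the first or without the second 10 h array, where 12% and 12.5% of all genes did. With robust variance moderation 14 passed (20.9%, all genes 36.5%) and with array weights 22 (32.8%, all genes 46.1%). Without the first 4 h array 23 passed (34.3%, all genes 47.6%) and without the second 22 (32.8%, all genes 45.3%). The rises were 3 of the large subunit and 4 of the small, and the falls were RSM10 and MRP8.

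MRP1, the other superoxide dismutase-like protein of the small subunit, had the largest rise at 10 h. It was at 0.27 and 0.42 (4 h), -0.09 and -0.22 (8 h) and 0.47 on both arrays (10 h). The 10 h value was 0.47 (SE 0.12, limma adjusted p = 0.00564), and 4 h passed as well (0.34). MRP2, the relative of bacterial S14, followed a like course at 0.18 and 0.53, then -0.20 and -0.21, then 0.41 and 0.44. Its 10 h value was 0.43 (SE 0.12, limma adjusted p = 0.0128).

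MRPL3, a large subunit protein with a ribonuclease III-like fold, was at 0.34 and 0.47 at 10 h (fitted 0.40, limma adjusted p = 0.0224). It was the 1 gene of the 67 above 0 on all 6 low phosphate arrays, from 0.06 to 0.54, a pattern that 7.84% of all genes measured there showed. Below 0 on all 6 were RSM10 and MRP8, against 4.72% of all genes. The other rises at 10 h were those of MRP49 (0.34), MRPL10 (0.37) and RSM23, the GTP-binding protein of the small subunit (0.34). The calls of MRP1, MRP2, MRPL3, RSM26 and MRP8 at 10 h were each lost without either 10 h array, at adjusted p between 0.0874 and 0.376.

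Differences between times of low phosphate carry no constant dye preference, but both use the 8 h arrays. From 4 h to 8 h, 16 of the 67 genes fell (23.9%) and 3 rose (4.48%), against 21% and 12.1% of all genes. The median difference was -0.23, against -0.11 over all genes. After centring 13 fell and 10 rose, and the counts over all genes went from 1088 lower and 627 higher to 845 and 1294. In either direction 28.4% of the 67 and 33.1% of all genes were called. Without the first 4 h array 32 passed (47.8%, all genes 45%), and with array weights 9 (13.4%, all genes 23.2%). Without the first 8 h array 7 passed (10.4%, all genes 19.8%) and without the second 2 (2.99%, all genes 18.2%). The large subunit had 9 falls and 1 rise and the small subunit 6 and 2.

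The falls from 4 h to 8 h were led by MRPL49 (-0.77, SE 0.18, limma adjusted p = 0.00259) and MRPS16 (-0.72, 0.00393), whose values on each array are given above. MRPL44, specific to mitochondria, went from 0.41 and 0.45 to -0.19 and -0.36, a difference of -0.70 (limma adjusted p = 0.00377). MRPL51, also specific to mitochondria, went from 0.21 and 0.29 to -0.28 and -0.52, a difference of -0.65 (0.00653). In all 4 genes the 4 h arrays lay above the 8 h arrays, but the genes were picked for this difference.

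The 3 rises were those of MRPL28 (0.73, limma adjusted p = 0.00465), MRPS35 (0.54, 0.0192) and RSM7 (0.48, 0.0361). MRPS35, specific to mitochondria, went from -0.48 and -0.38 to 0.12 and 0.08. RSM7, the relative of bacterial S7, went from -0.39 and -0.19 to 0.23 and 0.14. RSM7 lost its call with the replicate block (adjusted p = 0.052) and in 6 other settings, among them without either 8 h array (0.22 and 0.141). The call of MRPS35 was lost without either 8 h array (0.134 and 0.112), that of MRPS16 without the first (0.0584), and those of MRPL28, MRPL44 and MRPL51 without the second (0.0669, 0.0739 and 0.128).

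From 8 h to 10 h, 20 of the 67 genes rose (29.9%) and 0 fell, against 30.6% and 14.8% of all genes. The unadjusted limma p was under 0.05 for 28 rises and 0 falls, and for 1912 rises and 874 falls of all 5185 genes. Robust moderation also gave 0 falls, against 15.5% of all genes. After centring 11 rose and 4 fell, and the counts over all genes went from 1586 and 768 to 1125 and 1258. The median difference was 0.30, against 0.22 over all genes. In either direction 29.9% of the 67 and 45.4% of all genes were called. Without the first 8 h array 7 passed (10.4%, all genes 33.1%) and without the second 1 (1.49%, all genes 27.5%). Without the first 10 h array 6 passed (8.96%, all genes 31.5%) and without the second 1 (1.49%, all genes 29.2%). With array weights 32 passed (47.8%, all genes 58.9%). Without the first 4 h array 33 passed (49.3%, all genes 58.9%) and without the second 32 (47.8%, all genes 57.3%). The large subunit had 11 rises and the small subunit 8.

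RSM18, the relative of bacterial S18, had the largest difference, 0.65 (SE 0.18, limma adjusted p = 0.00689), from -0.31 and -0.44 at 8 h to 0.19 and 0.37 at 10 h. MRPL22, related to bacterial L22, went from -0.39 and -0.24 to 0.34 and 0.29 (0.63, limma adjusted p = 0.0104). MRPL51 went to 0.21 and 0.26 at 10 h (0.63, 0.00559), and MRP2 differed by 0.63 (0.00653). The 4 did not overlap between the times, but they were picked for the largest differences between these same arrays. Each lost its call without 1 of the 8 h arrays and without 1 of the 10 h arrays, at adjusted p between 0.0552 and 0.113.

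**Figure D3:**
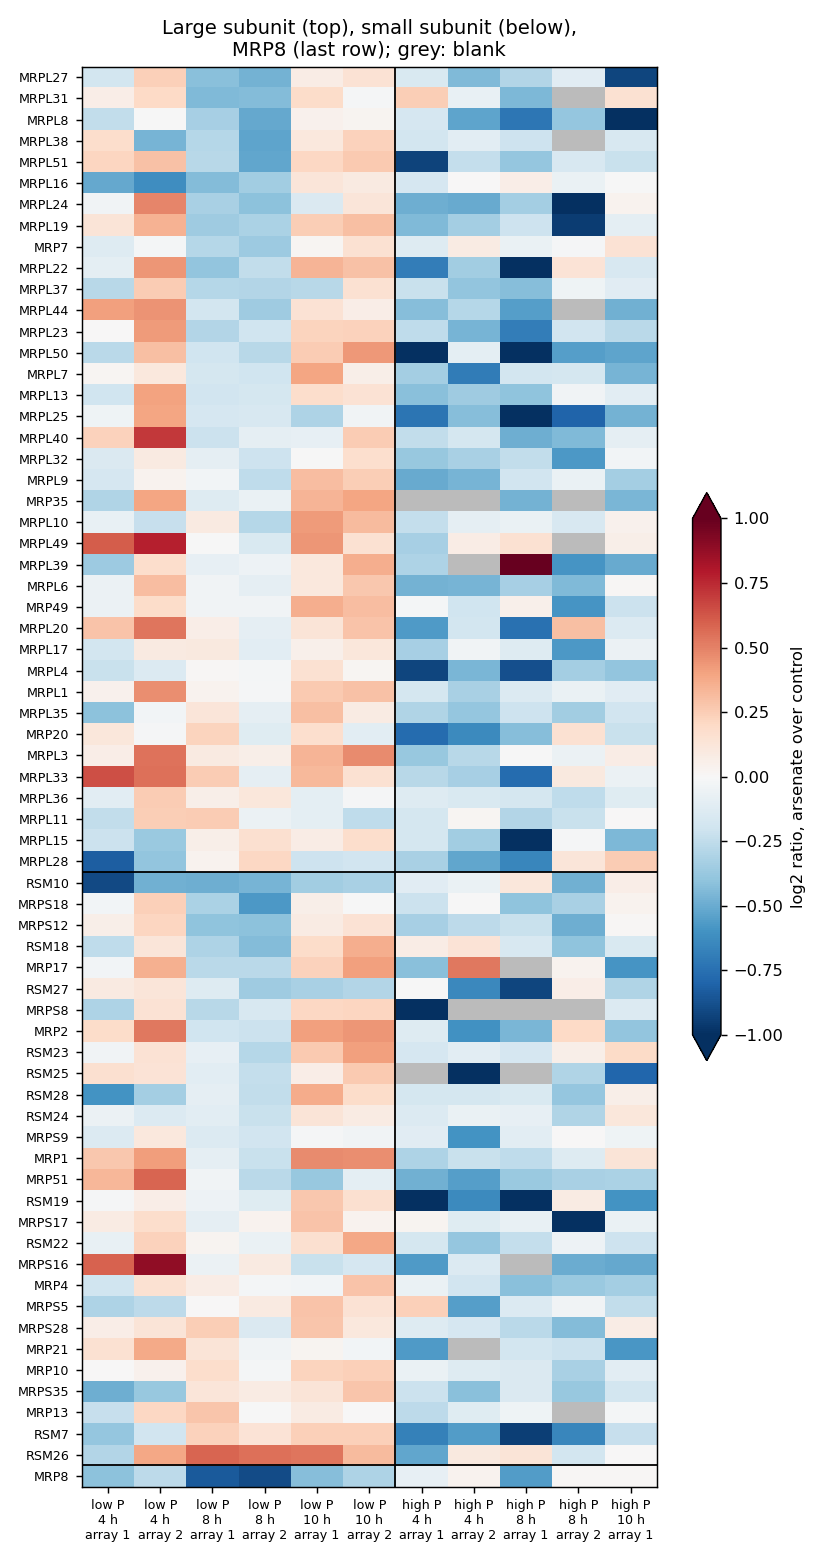
Log2 ratio of arsenate over control as a colour scale for 67 genes (rows) on 11 arrays (columns), ordered within each subunit by the 8 h mean at low phosphate; colours saturate at -1 and 1 and grey marks blanks. Blue is frequent in the high phosphate columns, and the 2 high phosphate 8 h columns differ from each other.

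At high phosphate the mitoribosomal genes were mostly below 0, but single genes did not pass the test. Of the 64 genes tested 61 were below 0 at 4 h, 60 at 8 h and 61 in the mean of the 3 times. Most genes of the table were below 0 as well, 3407, 3377 and 3284 of all 4816. The medians of the 64 were -0.30, -0.27 and -0.23, against -0.13, -0.16 and -0.12 over all 4816 genes. No gene of the 64 had an adjusted p under 0.05, nor did any of all genes (0% called at 4 h, 8 h and in the mean), with limma, with robust moderation and with array weights. ARR2, at 3.36 at 4 h, had an adjusted p of 0.204 there, so this fit called not even that gene.

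The unadjusted limma p was under 0.05 for 19 lower and 0 higher genes at 4 h, against 17.5% lower and 2.74% higher of all genes. At 8 h it was 15 and 0, against 18.9% and 6.58%, and for the mean of the times 25 and 0, against 24.3% and 9.53%. Without the first 8 h array 21 of 57 genes passed the adjusted test as lower in the mean, as did 933 of all 4229 genes tested, and 327 were higher. Without the second 8 h array 20 of 60 passed as lower, with 1005 lower and 250 higher of 4588. At 8 h alone 5 genes passed as lower without the first array (8.77%, all genes 10.8%) and 5 without the second (8.33%, all genes 11.7%). The unadjusted counts at 8 h were 21 lower of 57 without the first array (36.8%, all genes 27%) and 24 of 60 without the second (40%, all genes 26.9%). In the mean they were 32 of 57 (56.1%, all genes 34.2%) and 34 of 60 (56.7%, all genes 35.7%). Of the fitted values 45 of 57 were below 0 at 8 h without the first array (78.9%, all genes 63.7%) and 55 of 60 without the second (91.7%, all genes 63.5%). In the mean 54 of 57 (94.7%, all genes 64.1%) and 57 of 60 (95%, all genes 64.8%) were below 0.

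Of the 55 genes measured on all 5 high phosphate arrays 25 were below 0 on each (45.5%), against 24.2% of all genes, and 0 were above 0 on each. Relative to the array medians 13 of 55 were below on each array (23.6%), against 14% of all genes. By subunit the counts below 0 on each array were 19 of 32 for the large and 6 of 22 for the small subunit. Below the array medians they were 10 of 32 and 3 of 22. Without the first 8 h array 27 of 57 genes were below 0 on each of the other 4 arrays (47.4%, all genes 29%), and without the second 36 of 60 (60%, all genes 32%). Below the array medians these counts were 14 of 57 (24.6%, all genes 18.1%) and 25 of 60 (41.7%, all genes 20.8%).

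At 4 h the values at low and high phosphate often lay on opposite sides of 0. Of the 62 genes with a value on all 4 of these arrays 18 were above 0 on both low phosphate arrays and below 0 on both high phosphate arrays (29%), against 18.5% of all genes. The opposite pattern was shown by 0 of the 62 and by 2.87% of all genes. These counts are as deposited, and array medians at 4 h were themselves below 0 on both high phosphate arrays and on 1 of the low phosphate arrays.

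The large subunit lay lower than the small on 3 of the 5 high phosphate arrays. At 4 h the large subunit medians were -0.33 on both arrays and the small subunit medians -0.18 on both, a difference of -0.15 on each. The first 8 h array gave a difference of -0.16 and the second 0.14, in the opposite direction. At 10 h the difference was 0.02. On low phosphate arrays the medians of the subunits differed by -0.05 and 0.10 (4 h), -0.03 and 0.0097 (8 h) and -0.02 on both arrays (10 h). The subunits thus did not keep one order across arrays in either medium, and no test was run on them.

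The lowest genes at 4 h of high phosphate were RSM19, the relative of bacterial S19, and MRP20, the relative of L23. RSM19 was at -1.37 and -0.63 (4 h), -1.54 and 0.09 (8 h) and -0.59 (10 h), and its 4 h value of -1.002 had an SE of 0.47 (limma adjusted p = 0.317). MRP20 was at -0.77 and -0.64 at 4 h (fitted -0.70, adjusted p = 0.204), and at -0.42 and 0.16 at 8 h. The highest were RSM18 at 0.11 (adjusted p = 0.581) and MRPL31 at 0.09 (0.746).

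At 8 h of high phosphate single arrays set the extremes. MRPL22 was at -5.37 on the first array and 0.14 on the second, and between -0.69 and -0.16 on the other 3. Its 8 h value of -2.62 (SE 1.43, limma adjusted p = 0.317) became 0.14 without the first array (adjusted p = 0.572) and -5.37 without the second, where it passed (0.00778). MRPL50, related to bacterial L9, was at -1.50 and -0.55 (fitted -1.03, adjusted p = 0.201), and did not pass without the first array (0.376) or without the second (0.105). MRPL39, related to bacterial L33, was at 1.46 and -0.59 (fitted 0.44, adjusted p = 0.678), and MRPL49 had 1 value at 8 h, 0.15 (0.677).

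In the mean of the 3 times MRPL22 was at -1.10 (limma adjusted p = 0.458), at -0.18 without the first 8 h array (0.169) and at -2.02 without the second, where it passed (0.0182). RSM19 was at -0.78 (adjusted p = 0.182), at -0.50 without the first 8 h array (0.0785) and at -1.05 without the second, where it passed (0.0295). The highest, MRP7 at 0.03 (0.766) and MRPL49 at 0.03 (0.875), were close to 0. MRP7, the relative of bacterial L27, was at -0.0061 without the second 4 h array.

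RSM19 and MRPS12 were the only pair of the 67 that were neighbours in the reference gene table. At 8 h of low phosphate MRPS12 fell (-0.40, limma adjusted p = 0.00816) and RSM19 was at -0.09 (0.564). At 4 h of high phosphate they were at -0.30 and -1.002.

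At low phosphate the medians of the protein classes were near each other. At 4 h the medians of bacterial relatives and of mitochondria-specific proteins were both 0.05, at 8 h -0.15 and -0.16, and at 10 h 0.19 and 0.16. At 8 h 10 of 41 bacterial relatives (24.4%) and 3 of 24 mitochondria-specific genes (12.5%) fell, against 30.5% of all genes. At 10 h 2 (4.88%) and 5 (20.8%) rose, against 20.2% of all genes. At high phosphate, over the 39 and 23 genes tested, the 4 h medians were -0.31 and -0.30, the 8 h medians -0.34 and -0.26, and the medians of the mean -0.27 and -0.20. The unadjusted limma p at 8 h was under 0.05 for 12 of 39 and 3 of 23 as lower, against 18.9% of all genes. These class counts are not given without each of the 8 h arrays. The classes were not tested against each other.

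Proteins of the cytosolic ribosome, which translates nuclear messages, took another course on the same arrays. Of the 136 genes 46 rose at 4 h of low phosphate (33.8%, all genes 14.7%), 134 at 8 h (98.5%, all genes 18.3%) and 126 at 10 h (92.6%, all genes 20.2%), with medians of 0.31, 1.11 and 0.76. RPS18B, at 1.83, had the largest rise at 8 h. At 8 h the median of this list was 1.26 and 1.27 above that of all genes on the arrays where the mitoribosomal median was within 0.01 of it. At high phosphate it was 0.33 to 0.37 above on all 5 arrays, where the mitoribosomal median was below. From 8 h to 10 h 58 cytosolic genes fell (42.6%, all genes 14.8%) and 1 rose, with a median of -0.36.

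Nuclear-encoded proteins of the respiratory chain and ATP synthase, many of which assemble with the products of the mitoribosome, also differed. Of 38 genes tested 22 fell at 8 h of low phosphate (57.9%, all genes 30.5%) and 0 rose (all genes 18.3%), with a median of -0.35. COX5B, a cytochrome c oxidase subunit, was at -1.12, and CYT1, cytochrome c1, at -0.81. At 10 h 6 fell (15.8%, all genes 12.8%) and 1 rose (2.63%, all genes 20.2%), with a median of -0.07 and ATP1, an ATP synthase subunit, at -0.60. Relative to all genes, their median was 0.17 to 0.26 below on the 8 h and 10 h arrays of low phosphate, and 0.10 to 0.22 above on the 5 high phosphate arrays. On the 10 h low phosphate arrays and on all high phosphate arrays the mitoribosomal median lay on the other side of that of all genes. No test compared the lists.

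**Figure D4:**
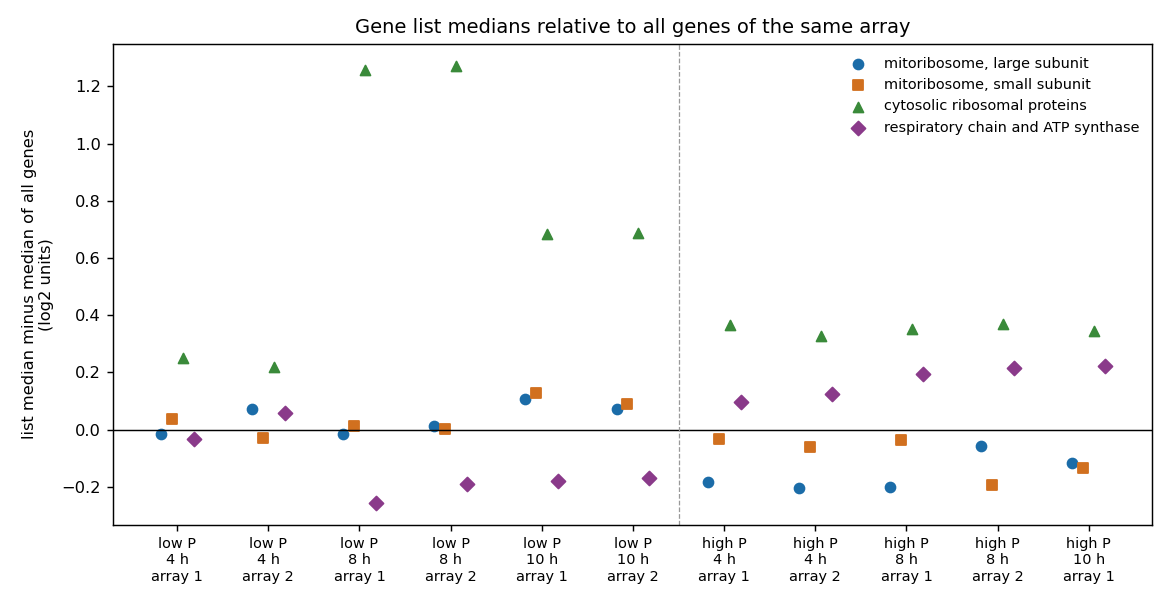
Median of each gene list minus the median of all genes on the same array (vertical axis, log2 units) for the 11 arrays. The mitoribosomal subunits lie between -0.21 and 0.13, the cytosolic ribosomal proteins lie above 0 on every array, and the respiratory chain and ATP synthase genes lie below 0 at 8 h and 10 h of low phosphate and above 0 at high phosphate.

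Other genes of mitochondrial translation were described alongside. Their counts stand beside the shares of all genes that rose (14.7% at 4 h, 20.2% at 10 h) or fell (11.6% at 4 h, 30.5% at 8 h). Of 13 mitoribosomal proteins under other symbols 1 rose at 4 h of low phosphate (7.69%), 2 fell at 8 h (15.4%) and 3 rose at 10 h (23.1%), where NAM9, the small subunit relative of bacterial S4, was at 0.51 (limma adjusted p = 0.00448). The medians were -0.05, -0.18 and 0.21, against 0.04, -0.13 and 0.07 over all genes. Set against the median of all genes, the 4 h arrays gave -0.06 and -0.08, the 8 h arrays -0.03 and -0.05, and the 10 h arrays 0.08 and 0.20.

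Of 8 translation factors tested 2 fell at 4 h (25%), 6 fell at 8 h (75%) and 2 rose at 10 h (25%). MEF2, a GTPase of the elongation factor G family, was at -0.43 at 4 h and -1.13 at 8 h (limma adjusted p = 7.86e-07). AIM23, an initiation factor, was at -0.67 at 8 h, and TUF1, the elongation factor Tu, at 0.53 at 10 h. From 8 h to 10 h 4 of 8 rose (50%, all genes 30.6%), MEF2 by 1.31 and IFM1, the initiation factor related to bacterial IF2, by 0.96.

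Of 13 mitochondrial aminoacyl-tRNA synthetases, which charge the tRNAs used by the mitoribosome, 3 fell (23.1%) and 1 rose (7.69%) at 4 h, 5 fell at 8 h (38.5%) and 5 rose at 10 h (38.5%). MSW1, the tryptophanyl enzyme, was at -1.32 at 4 h (limma adjusted p = 1.95e-05). MST1, the threonyl enzyme, was at -0.52 at 4 h, -0.57 at 8 h and 0.51 at 10 h. From 8 h to 10 h 8 of 13 rose (61.5%, all genes 30.6%), with MST1 at 1.08 (7.12e-05).

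Translational activators mostly act on single mitochondrial messages, and the list also holds factors of message stability. Of 14 tested, 3 fell (21.4%) and 1 rose (7.14%) at 4 h, 4 fell at 8 h (28.6%) and 7 rose at 10 h (50%). CBP1, which stabilises the cytochrome b message, was at 0.66 at 10 h (limma adjusted p = 0.000495). PET111, needed for translation of the COX2 message, was at -0.69 at both 4 h and 8 h. Of 8 assembly factors 1 rose at 4 h (12.5%), 1 fell at 8 h (12.5%) and 2 rose at 10 h (25%). RPO41, the mitochondrial RNA polymerase, was at -0.33 at 8 h (0.0289) and rose by 0.63 from 8 h to 10 h (0.00571).

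At high phosphate no gene of these lists passed the test, nor did any gene of the table. The other mitoribosomal proteins had medians of -0.19 at 4 h, -0.29 at 8 h and -0.25 in the mean, against -0.13, -0.16 and -0.12 over all genes. For the translation factors they were -0.42, -0.30 and -0.33, and for the synthetases -0.37, -0.17 and -0.26. For the activators they were -0.25, -0.25 and -0.19, and for the 6 assembly factors tested -0.44, -0.22 and -0.41.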

How the data were processed

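The deposited values are taken as log2 ratios of Cy5 (arsenate) over Cy3 (control), normalized by the authors. Per the labels, normalization used the spots flagged 0. Software, log base, direction, centring and build: not given in the sources used here. The direction was taken from the dyes. The number of arrays limits the precision, and signal over background is unknown.

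Each of the 2 tables had 10807 spots, of which 9202 (low phosphate) and 9271 (high phosphate) named 1 gene through the platform annotation; the rest were left out. Spots of a gene were averaged. Genes with a value at every time and a repeated time were fitted with limma 3.58.1 in R 4.3.3, a mean per time, with 3 residual degrees of freedom at low and 2 at high phosphate (prior degrees of freedom 15.5 and 1.72); the lone 10 h array was assumed to vary like the others. Genes with blanks were refitted on the values present. The fit was also run on simulated ratios with independent noise and no differences between array medians, and its outcome is not given here. Python 3.11.15, numpy 2.4.6, pandas 2.3.3 and matplotlib 3.10.9 were used.

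For each comparison the 4 called genes with the largest rise and the 4 with the largest fall were named, or, where none was called, the 2 highest and 2 lowest; for other lists the 2 called genes with the largest change. Other named genes were chosen after their values were seen. The members and lists were chosen with earlier results of these data known. Alternatives were centring, leaving out an array, a replicate block, genes on every array, median of spots, robust moderation and array weights. Low phosphate arrays of the same number were paired only weakly, and the labels do not say what the numbers stand for. Over 4747 genes, deviations of same-numbered arrays correlated at 0.11, 0.14 and 0.21. At high phosphate the correlation was -0.02 over 4127 genes. No sequences or coordinates are printed; the order of genes in the reference table (assembly R64) was used only to find neighbours.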

Additional observations from a re-analysis of the deposited data

Results flagged for a closer look

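At low phosphate 19 genes passed limma's test from 4 h to 8 h (28.4%, all genes 33.1%). A further comparison, from 8 h to 10 h, had 20 (29.9%, all genes 45.4%). At most the 4 largest in each direction are given, 11 in all. From 4 h to 8 h MRPL49 (-0.77), MRPS16 (-0.72), MRPL44 (-0.70) and MRPL51 (-0.65) fell, and RSM7 (0.48), MRPS35 (0.54) and MRPL28 (0.73) rose. From 8 h to 10 h MRP2 (0.63), MRPL51 (0.63), MRPL22 (0.63) and RSM18 (0.65) rose. All 11 used the same 8 h arrays.

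Of the 62 genes measured on all 4 h arrays 18 (29%) lay above 0 at low phosphate and below 0 at high phosphate on every 4 h array. This pattern was shown by 18.5% of all genes. Among the 18 were 3 of the 4 genes with the largest called rise at 4 h of low phosphate. MRP1, MRP2, MRP51, MRPL20 and MRPL44, also called higher there, were among them too. Genes picked for a rise at low phosphate tend to meet the first part of this pattern by that choice. Values follow for the 3. The means were 0.47 and -0.21 for MRPL40 (difference 0.68), 0.60 and -0.31 for MRPL33 (0.90), and 0.74 and -0.35 for MRPS16 (1.09). The difference was not tested, since phosphate and array design cannot be told apart.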

How the results depend on the processing

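Of the 92 alternative counts of called genes 64 stayed within 1.5 times the main count, and 77 of 92 alternative medians moved by less than the spread between replicates. Among values of named genes 413 of 468 kept their direction and side of the threshold, 50 lost the call, 3 gained it and 2 reversed. The 468 include high phosphate values, where the main fit called no gene and so no call could be lost. Of the 30 named calls at low phosphate 6 held in all 12 alternatives: RSM10, MRPL49 and MRPS16 at 4 h, MRP8 and RSM26 at 8 h, and MRPL49 from 4 h to 8 h. Array weights gave 3 called genes at 4 h, 23 at 8 h, 22 at 10 h, 9 from 4 h to 8 h and 32 from 8 h to 10 h, and robust moderation gave 14 at 10 h. Leaving out 1 array gave 11 to 27 called genes at 4 h, 2 to 23 at 8 h, 0 to 23 at 10 h, 2 to 32 from 4 h to 8 h and 1 to 33 from 8 h to 10 h. At high phosphate it gave 0 to 5 at 8 h and 0 to 21 in the mean. Centring gave medians of -0.015 at 8 h, 0.11 at 10 h, -0.043 from 4 h to 8 h and 0.10 from 8 h to 10 h, and of -0.16, -0.14 and -0.14 at high phosphate (4 h, 8 h, mean). With 1 array left out the medians ran from -0.17 to -0.087 at 8 h, 0.15 to 0.17 at 10 h, and -0.33 to -0.25, -0.27 to -0.19 and -0.25 to -0.19 at high phosphate (4 h, 8 h, mean). MRPL22 at 8 h of high phosphate reversed to 0.14 without the first 8 h array (-5.37 to 0.14 with 1 array left out), and MRP7 in the mean to -0.0061 without the second 4 h array (-0.0061 to 0.064). The cause was not tested. The share of all genes called also changed when 1 array was left out. With the replicate block 13, 16, 8, 19 and 19 of the 67 genes were called in the 5 low phosphate comparisons. Of all genes 26%, 48.7%, 33.4%, 33.3% and 45.3% were called there. The block ended the calls of RSM10 at 10 h and RSM7 from 4 h to 8 h (limma adjusted p = 0.052 each) and of no other named gene. A description of promoter letters was planned and not run, since no sequence was used here.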
